A study of Mus musculus with 3 samples.

Results

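The cells described here are the day 7 callus cells rich in transcripts of the primary granule proteases and peroxidase. They were chosen by their summed level of *Elane*, *Mpo*, and *Prtn3*, which had to reach 50 unique molecular identifiers (UMIs, each standing for 1 captured mRNA molecule) per 10000 UMIs of the cell. Of 8178 day 7 cells with at least 500 genes, at most 10% mitochondrial UMIs, and at most 5% hemoglobin UMIs, 720 met this rule (8.80%, 95% Clopper-Pearson interval 8.20% to 9.44%). They are called members below. The whole series held 26325 cells within the same limits.

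Cells from the callus of C57BL/6 mice with a femoral fracture were profiled by droplet RNA-Seq, with 1 library from each of day 7, day 10, and day 14. Per the paper's methods, surgery was under isoflurane with buprenorphine for pain, and a steel pin was placed through the marrow of the fractured femur. No other treatment is named for these libraries. The callus was cleaned of bone marrow and digested with collagenase, and live cells negative for CD45, CD31, and TER119 were sorted, so that blood cells should have been removed. The study used mice of both sexes, and no library had a replicate. All intervals therefore cover counting error alone, and no test between groups of cells was run. Members and comparison cells come from 1 library, and cells are not replicates.

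The day 7 library went against its sort. *Ptprc*, which encodes CD45, had a UMI in 91.1% of its cells within the limits, in 0.0818% of those of day 10, and in 1.74% of those of day 14. Among members, 675 of 720 carried a *Ptprc* UMI (93.8%). At an equal depth of 2000 UMIs per cell this share was 19.6%, beside 6.02% in stromal cells of the same library, which should lack the gene. The 3 libraries shared few barcodes, 29 between day 7 and day 10 and 42 between day 7 and day 14, and 5 members had a barcode seen in another library. The day 7 library held 113127788 UMIs in total, the day 10 library 144103160, and the day 14 library 195661880.

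Neutrophils and monocytes arise in bone marrow from shared myeloid progenitors. At the promyelocyte stage, granulocyte precursors fill their primary (azurophil) granules with myeloperoxidase (*Mpo*) and with serine proteases such as neutrophil elastase (*Elane*), proteinase 3 (*Prtn3*), and cathepsin G (*Ctsg*). Later stages switch to proteins of the secondary granules (*Camp*, *Ngp*, *Ltf*, *Lcn2*), stop dividing, and then turn on genes of the mature neutrophil (*Retnlg*, *Cxcr2*, *Il1b*). Monocyte progenitors also make *Mpo* and *Elane*, and the transcription factor *Irf8* favors their branch, whereas *Gfi1* and *Cebpe* favor the granulocyte branch.

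*Elane* lies on chromosome 10 of GRCm38 at 79886247-79888215, and *Prtn3* lies beside it at 79874476-79883174, both on the plus strand. *Mpo* is at 87793581-87804413 of chromosome 11 (plus strand) and *Ctsg* at 56099881-56102574 of chromosome 14 (minus strand). The 250 bases before the RefSeq start of each gene (GRCm38.p6) are shown. These are the 3 genes of the rule and *Ctsg*, a primary granule protease gene outside it. *Prss57*, another serine protease gene outside the rule, had no upstream sequence available. Capitals mark matches, on either strand, to GAGGAA (the core bound by PU.1), CAACNG (Myb), and TGTGGT (Runx). No match overlapped another.
Elane, chr10:79886062-79886311, plus strand: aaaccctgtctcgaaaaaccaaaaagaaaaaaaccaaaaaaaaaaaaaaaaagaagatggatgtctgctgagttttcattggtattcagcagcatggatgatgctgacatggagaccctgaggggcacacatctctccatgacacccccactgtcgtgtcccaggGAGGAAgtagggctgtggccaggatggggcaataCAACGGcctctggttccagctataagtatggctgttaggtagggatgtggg
Prtn3, chr10:79879417-79879666, plus strand: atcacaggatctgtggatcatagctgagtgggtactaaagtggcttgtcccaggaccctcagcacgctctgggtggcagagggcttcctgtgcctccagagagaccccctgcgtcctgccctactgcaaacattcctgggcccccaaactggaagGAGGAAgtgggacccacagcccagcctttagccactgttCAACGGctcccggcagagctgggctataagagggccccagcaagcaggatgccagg
Mpo, chr11:87793534-87793783, plus strand: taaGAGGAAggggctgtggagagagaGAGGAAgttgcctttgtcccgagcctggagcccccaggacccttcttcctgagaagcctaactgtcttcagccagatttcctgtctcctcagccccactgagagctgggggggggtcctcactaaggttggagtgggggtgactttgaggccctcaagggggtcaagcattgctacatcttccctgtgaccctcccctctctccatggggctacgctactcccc
Ctsg, chr14:56102575-56102824, minus strand: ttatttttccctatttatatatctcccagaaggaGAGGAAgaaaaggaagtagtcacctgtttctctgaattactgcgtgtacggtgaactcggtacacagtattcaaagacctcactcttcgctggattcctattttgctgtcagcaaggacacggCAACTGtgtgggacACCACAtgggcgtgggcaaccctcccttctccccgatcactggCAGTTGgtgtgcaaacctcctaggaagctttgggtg

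All 4 windows held the PU.1 core, which was present in 23.3% of 32851 mouse windows of the same length, from 27025 genes. Of 9 windows from a primary granule list outside the rule, *Ctsg* included, 3 held it, beside all 3 windows of the rule genes. That list also holds *Ms4a3* and *Gstm1*, which are described below as other kinds of gene. The PU.1 core was found in 7 of 12 windows of secondary granule genes and in 8 of 17 of tertiary granule and mature genes. In *Elane* the PU.1 match began 85 bases before the start and was followed after 28 bases by a Myb match, and in *Prtn3* it began 95 bases before the start and was followed after 33 bases by a Myb match of the same letters. The PU.1 and Myb motifs occurred together in 6.58% of all windows, and the Myb motif in 29.3%. *Ctsg* held both as well, at larger distances, plus 1 Runx match (14.0% of all windows). *Mpo* had 2 PU.1 matches far upstream and no Myb match. None of the 4 windows held TTGCNNAA, the C/EBP motif, found in 9.56% of all windows. The GENCODE genes of *Elane* and *Mpo* begin inside these windows and that of *Prtn3* begins before its window, so that these bases may be transcribed from an earlier start.

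The rule separated members from most other cells. The summed level of *Elane*, *Mpo*, and *Prtn3* ranged in members from 51.3 to 590 UMIs per 10000, with a median of 233. The 3 members just inside the threshold had 51.3, 51.5, and 52.4, and the 3 cells just outside it had 49.7, 48.9, and 47.6. Only 77 cells lay between 25 and 50, whereas 411 reached 200 and 117 reached 400. These values chose the cells and support nothing by themselves.

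**Figure D1:**
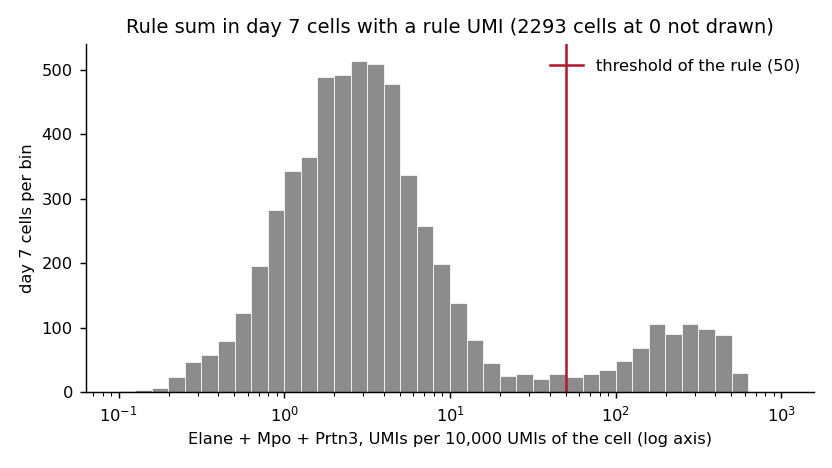
Histogram of the summed level of Elane, Mpo, and Prtn3 (UMIs per 10000 UMIs of the cell, log axis) over day 7 cells within the limits, with cells per bin on the vertical axis and the threshold of 50 as a red line. The 2293 cells without a UMI of these genes are not drawn, and the members form a separate hump on the right, around their median of 233.

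*Ctsg*, which the rule did not use, had 96.5% of its UMIs of day 7 cells in members. The rule genes, whose place in members the choice of cells fixes, had 97.6% (*Elane*), 97.6% (*Mpo*), and 96.5% (*Prtn3*) of theirs there. Over all genes, members held 30271415 UMIs, the other cells with a *Ptprc* UMI 61270668, and the other cells without one 15604109. *Elane* had a median of 90.9 UMIs per 10000 in members (lowest 0, highest 355). *Mpo* had a median of 67.5 (0.908 to 230), *Prtn3* of 68.3 (1.92 to 191), and *Ctsg* of 35.3 (0 to 117). *Elane* was absent in 3 members and *Ctsg* in 17. The 3 rule genes made up 2.50% of all member UMIs.

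Low counts of the same genes were found in every other group of the library. After each cell was thinned to 2000 UMIs, which left out 21 members, an *Elane* UMI was found in 98.4% of members, in 12.8% of cells with secondary granule genes, and in 18.2% of cells with mature neutrophil genes. Cells that should lack it gave 5.39% (stromal) and 8.66% (B lineage), at median depths of 33235 and 5199.5 UMIs before thinning, against 42382 in members. Without thinning these shares were 99.6%, 41.6%, 30.3%, 57.4%, and 30.2% in the same order. For each *Elane* UMI there were 0.723 *Prtn3* and 0.379 *Ctsg* UMIs in members, 0.888 and 0.352 in stromal cells, and 1.09 and 0.573 in the other cells with a *Ptprc* UMI. Stromal cells are the nonmembers with at least 100 UMIs per 10000 of *Col1a1*, *Col1a2*, *Col3a1*, *Sparc*, and *Postn*, and B lineage cells those with at least 20 of B lineage markers such as *Cd79a* and *Ebf1*.

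Members had large transcriptomes, with a median of 42382 UMIs (827 to 103712) and 6022 genes (514 to 8429). The 6777 other day 7 cells with a *Ptprc* UMI had a median of 5201 UMIs and 1473 genes. More than 5000 genes, the upper limit that the study set, were detected in 610 of 720 members (84.7%, 81.9% to 87.3%) and in 286 of the 6777 others (4.22%, 3.75% to 4.73%). Of all 1161 day 7 cells above 5000 genes, 52.5% were members. With the limit in force, 110 members remained, and their share of day 7 cells was 1.57%.

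The others were divided by level. At least 100 UMIs per 10000 of *Camp*, *Ngp*, and *Ltf* placed 2790 cells in a secondary granule group. At least 20 of *Retnlg*, *Il1b*, and *Cxcr2* placed 3327 more in a mature group, and 660 remained. Cells above 5000 genes made up 2.62%, 1.26%, and 25.9% of these groups. The difference in gene number narrowed at equal depth, where the median was 1009 genes in members, 753 in the secondary granule group, 799 in the mature group, 1041 in the remaining cells, and 997 in stromal cells. Mitochondrial UMIs had a median of 2.20% in members, 0.376% in the secondary granule group, 0.174% in the mature group, and 2.41% in stromal cells. *S100a8* and *S100a9*, 2 alarmins of neutrophils, took 1.65% of the UMIs of members and 19.98% of those of the others.

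**Figure D2:**
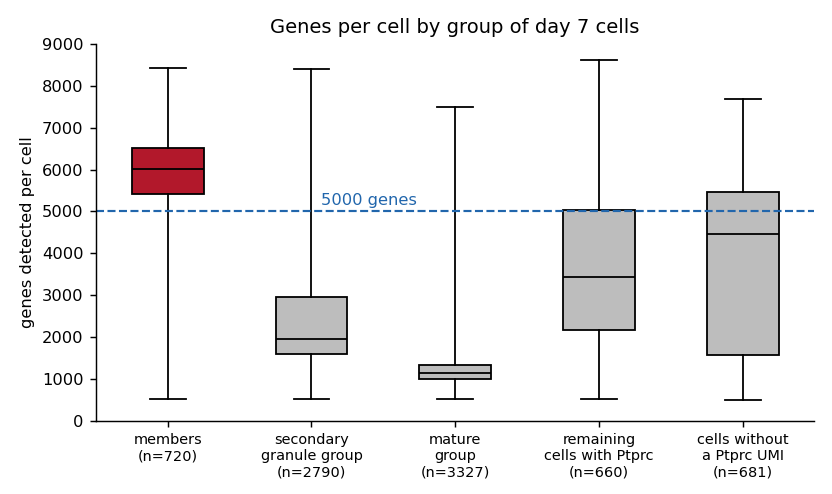
Genes detected per cell in members and in 4 groups of other day 7 cells. Boxes span the quartiles with the median as a line, whiskers reach the lowest and highest cell, and the dashed line marks 5000 genes. The member median of 6022 lies above the line, and the medians of the secondary granule group (1942) and of the mature group (1143) lie far under it.

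The members that the limit of 5000 genes would keep differed from those it would remove. Of the 110 members up to 5000 genes, 36 had at least 100 UMIs per 10000 of *Camp*, *Ngp*, and *Ltf* (32.7%, 24.1% to 42.3%), beside 49 of the 610 above it (8.03%, 6.00% to 10.5%). *Camp*, the cathelicidin precursor, was at 18603 counts per 1000000 UMIs (CPM) in the former and 2186 CPM in the latter. *Fcnb*, a ficolin of neutrophil precursors, was at 1162 and 234 CPM. *Irf8* of at least 1 UMI per 10000 was found in 24.5% (16.8% to 33.7%) of those up to the limit and in 54.1% (50.1% to 58.1%) of those above it. *Elane* was alike in both, at 11462 and 10496 CPM.

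Across genes, members were compared with the 6777 other day 7 cells with a *Ptprc* UMI, with UMIs summed over the cells of each side and scaled to CPM. Among 8508 genes with at least 10 CPM on either side, 2696 were at least 2-fold higher in members (31.7% of the genes) and 1589 were at least 2-fold lower (18.7%). The median log2 ratio of all genes was 0.43, so a list is best read against that value. After the ratios were centered on their median, 1580 genes were higher and 2147 lower, so the share of higher among called genes went from 62.9% to 42.4%. Because the rule chose the cells, these ratios are descriptions.

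Among genes with at least 100 CPM on the higher side, primary granule genes had the highest ratios. *Mpo* was at 6856 CPM in members and 74.4 in the others (log2 ratio 6.53, 6.48 to 6.57), *Elane* at 10557 and 117 (6.50), *Prtn3* at 7628 and 128 (5.90), and *Ctsg* at 4000 and 67.0 (5.90). A primary granule list of 11 further genes held *Ctsg*, but also *Ms4a3* and *Gstm1*, which are described below as other kinds of gene. Of these 11, 7 were higher, *Ms4a3* and *Gstm1* among them, and 1 was lower. The list median of 3.88 is therefore not that of granule protein genes alone. *Cst7*, which encodes cystatin F, an inhibitor of lysosomal proteases, was at 243 and 7.36 CPM (5.05). *Ms4a3*, a gene of granulocyte-monocyte progenitors, was at 1146 and 58.7 CPM (4.29). *Nkg7*, a granule membrane protein gene, was at 725 and 39.4 CPM (4.20), and *Prss57*, a further serine protease gene, at 242 and 16.4 CPM (3.88). *Srgn*, the proteoglycan core that retains granule proteins, was at 2175 and 677 CPM (1.68). The lower gene was *Lyz2* (lysozyme), at 864 and 7568 CPM (−3.13).

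Among the 15 genes with the highest ratios and at least 100 CPM in members, several were enzymes of metabolism and folding. *Gstm1*, a glutathione transferase, was at 573 and 25.6 CPM (4.48), and *Gsto1*, another one, at 151 and 15.9 CPM (3.25). *Phgdh*, the first enzyme of serine synthesis, was at 248 and 25.6 CPM (3.28). *Sdf2l1*, which acts in the endoplasmic reticulum (ER), was at 217 and 23.4 CPM (3.21). *Gria3* (glutamate receptor subunit), *BC035044*, and *Syce2* (a synaptonemal complex gene) completed the 15, at ratios of 3.64, 3.35, and 3.13.

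Genes of growth were higher in members as whole lists. Of 20 ribosome biogenesis genes, 19 were higher and none lower (median 2.27). *Npm1*, nucleophosmin, was at 1745 and 429 CPM, *Ncl*, nucleolin, at 1071 and 294 CPM, and *Fbl*, fibrillarin, at 286 and 49.1 CPM. *Polr1a* was the exception, at 37.9 and 37.4 CPM. Of 20 genes of ER folding and secretion, 19 were higher and none lower (median 1.63), 15 after centering. The chaperones *Calr* (1597 and 232 CPM) and *Hspa5* (708 and 260 CPM) and the translocon subunit *Sec61b* (1186 and 400 CPM) were among them. *Xbp1*, a factor of the ER stress response, had a log2 ratio of 0.83. *Myc*, which drives growth, was at 89.3 and 12.9 CPM (2.79).

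**Figure D3:**
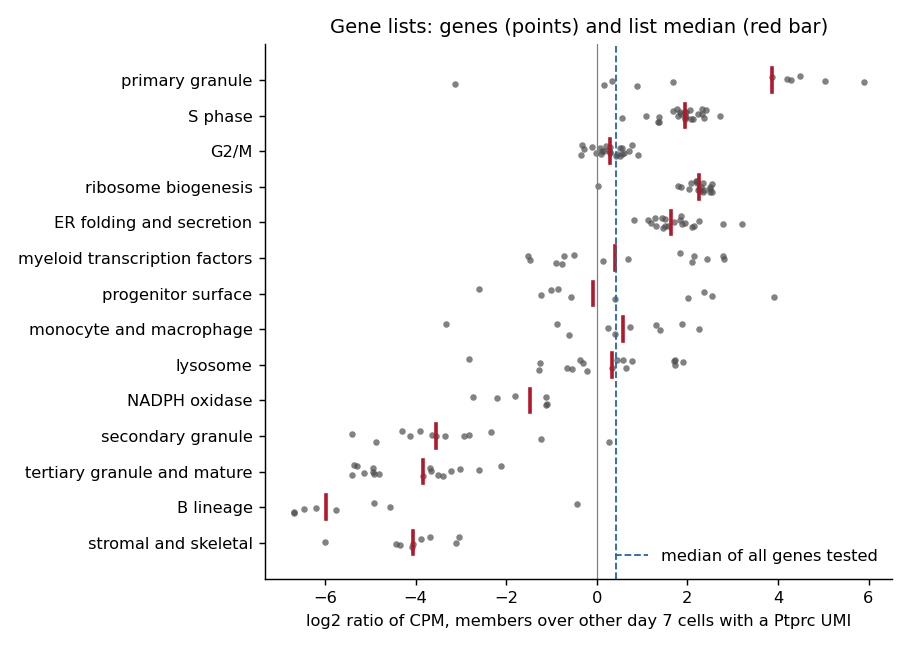
Log2 ratio of CPM, members over the other day 7 cells with a Ptprc UMI, for the genes of 14 lists. Each point is 1 gene with at least 10 CPM on either side, red bars are list medians, and the dashed line is the median of all genes tested (0.43). Primary granule (3.88), ribosome biogenesis (2.27), S phase (1.95), and ER genes (1.63) have medians to the right of the line, and genes of later neutrophil stages lie far to the left. The primary granule list also holds Ms4a3 and Gstm1.

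Genes of later neutrophil stages were lower. Of 13 tested secondary granule genes (14 in the list), 12 were lower and none higher (median −3.54). *Ltf*, lactoferrin, was at 188 CPM in members and 5570 in the others, *Ngp* at 1240 and 18435, *Lcn2*, lipocalin 2, at 522 and 9157, and *Mmp8*, neutrophil collagenase, at 42.2 and 1785. *Fcnb* stood outside the rest of this list, at 292 and 243 CPM (0.26). All 17 tested genes of tertiary granules and the mature cell were lower (median −3.83), such as *Retnlg* (301 and 12738 CPM), *Mmp9*, gelatinase B (44.8 and 1589 CPM), and the chemokine receptor *Cxcr2* (24.05 and 677 CPM). The formyl peptide receptors *Fpr1* (3.44 and 141 CPM) and *Fpr2* (9.55 and 375 CPM) were among the 10 genes with the lowest ratios and at least 100 CPM in the others. All 6 subunit genes of the NADPH oxidase were lower (median −1.47), *Cybb* from 1249 CPM in the others to 189 in members and *Cyba* from 1484 to 679. After centering, the same numbers of these lists were lower, 12, 17, and 6.

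Progenitor genes split. *Cd34* was at 77.5 and 5.17 CPM (3.90), *Cd93* at 112 and 19.1 CPM (2.55), the stem cell factor receptor *Kit* at 74.1 and 14.4 CPM (2.36), and *Cd48* at 118 and 29.1 CPM (2.02). *Csf3r*, the G-CSF receptor, was at 60.6 and 367 CPM (−2.60). *Flt3*, a receptor of earlier progenitors, was at 4.20 and 4.19 CPM, too low for the comparison. Of 10 tested genes of this list, 4 were higher and 3 lower (median −0.08), and 5 were lower after centering.

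Among 14 tested myeloid transcription factors, 6 were higher and 2 lower (median 0.41, but −0.03 after centering, where 5 were lower). *Myb* was at 414 and 59.0 CPM (2.81), *Irf8* at 338 and 62.1 CPM (2.44), *Cebpa* at 54.4 and 12.3 CPM (2.14), and *Gfi1* at 66.0 and 15.4 CPM (2.10). *Hoxa9*, which acts in early progenitors, had few UMIs and was at 12.4 and 3.48 CPM. *Cebpd* (140 and 386 CPM, −1.47) and *Gata2*, a factor of stem, mast, and basophil cells (3.90 and 11.1 CPM, −1.51), were lower. *Spi1*, which encodes PU.1, was at 259 and 442 CPM (−0.77), and *Runx1* at 110 and 101 CPM (0.13).

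Markers of other lineages were low in members, and most lay in the other cells. Of 8 tested B lineage genes 7 were lower (*Cd79a* 0.793 and 81.1 CPM), all 4 T and NK genes were lower (*Cd3d* 0.727 and 14.7 CPM), and all 9 stromal genes were lower (*Col1a1* 223 and 1909 CPM). The median levels of *Camp* were 1.26 UMIs per 10000 in members and 1.36 in stromal cells. At least 20 UMIs per 10000 of B lineage markers were found in 0 members, of stromal markers in 13, and of mature neutrophil markers in 47, which left 668 members with none of these. Without those 52 cells, 2728 genes were higher and 1609 lower, and the median of the stromal list went from −4.06 to −6.31. *Pecam1*, which encodes CD31 and was also to be sorted out, was at 31.8 and 10.4 CPM (1.61). It had a UMI in 5.29% of members at equal depth and in 0.158% of stromal cells.

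Against the secondary granule group alone, whose cells carry transcripts of the next stage of neutrophil development, 3484 of 8205 genes were higher in members (42.5%) and 1241 were lower (15.1%), with a median of 0.69. Among genes with at least 100 CPM in members, the 10 highest ratios were those of *Ctsg* (4000 and 24.01 CPM), *Mpo*, *Elane*, *Cst7*, *Prtn3*, *Ass1* (103 and 1.71 CPM), *BC035044*, *Gria3*, *Irf8* (338 and 7.17 CPM), and *Ly86* (141 and 3.08 CPM). *Ass1* encodes argininosuccinate synthase, and *Ly86* a partner of a Toll-like receptor homolog in monocytes and B cells. *Cd34* was at 77.5 and 1.22 CPM (5.99), *Cebpe* at 174 and 554 CPM (−1.67), and 8 of 9 tested monocyte genes were higher (median 3.29). Ribosome biogenesis genes had a median of 3.87, with 19 of 20 higher.

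Against the mature group, 3891 of 8570 genes were higher in members (45.4%) and 1938 were lower (22.6%), with a median of 0.75. All 24 S phase genes and 22 of 24 G2/M genes were higher, with medians of 3.67 and 3.41. Against the secondary granule group, 22 of 24 S phase genes were higher (median 2.55). There, 0 of 24 G2/M genes were at least 2-fold higher and 0 were lower (median 0.005).

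Most members carried transcripts of the cell cycle. The 24 S phase genes include the *Mcm* helicase genes, *Pcna*, and *Tyms*. At 2000 UMIs per cell, at least 3 of them were found in 81.5% of members (78.5% to 84.4%), 7.41% of the others, and 8.72% of stromal cells. The share was higher in the remaining cells (33.3%) and in B lineage cells (42.1%). At least 3 of 24 G2/M genes were found in 80.4% of members (77.3% to 83.3%), 26.2% of the secondary granule group, 10.9% of the mature group, and 39.4% of the remaining cells. With at least 5 G2/M genes the shares were 57.5%, 22.8%, 0.569%, and 32.7%. Without thinning, at least 3 G2/M genes were found in 98.1% of members and 36.0% of the others. *Mki67* had a UMI in 45.5% of thinned members, 36.2% of B lineage cells, 31.8% of the remaining cells, 12.8% of all others with a *Ptprc* UMI, and 4.91% of stromal cells. *Top2a* had one in 54.5%, 34.6%, 32.2%, 12.6%, and 6.97% in the same order.

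The summed counts gave another picture for G2/M than for S phase. Of 24 S phase genes 23 were higher in members than in the others (median 1.95), 19 after centering, for example *Mcm6* (169 and 33.6 CPM), *Hells* (106 and 20.4 CPM), and *Ung* (27.0 and 4.10 CPM). None of 24 G2/M genes was 2-fold higher or lower (median 0.29, or −0.14 after centering), for example *Mki67* (382 and 350 CPM), *Ccnb1* (75.1 and 55.2 CPM), and *Ube2c* (303 and 326 CPM). With each cell weighted equally instead, 20 of 24 G2/M genes were higher (median 1.45). Among the others, the 1968 cells above 2000 genes (29.0% of the cells) held 65.9% of the UMIs and 88.9% of the G2/M UMIs.

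**Figure D4:**
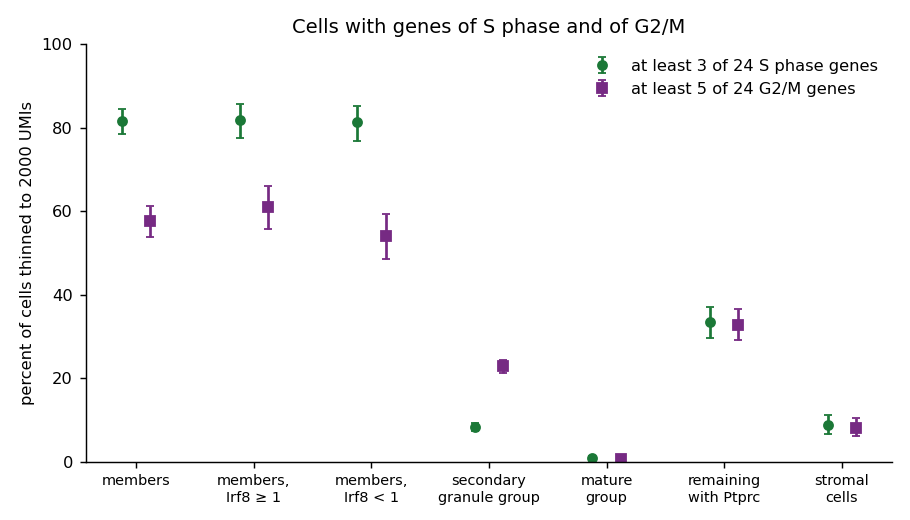
Percent of cells, thinned to 2000 UMIs, with at least 3 of 24 S phase genes (circles) and at least 5 of 24 G2/M genes (squares) in members, in members split by Irf8, and in groups of other day 7 cells. Bars are 95% Clopper-Pearson intervals. Members are at 81.5% and 57.5%, and the secondary granule group is at 8.29% and 22.8%.

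The label of granulocyte precursors covered the members only in part. *Irf8* was at 0 in 310 members and at least 1 UMI per 10000 in 357 (49.6%, 45.9% to 53.3%), with 43 between 0.5 and 2. The limit of 1 was chosen after these levels were seen, and the resulting classes are ranges of a level rather than cell types. Members at or above the limit are called with *Irf8* below, and those under it without *Irf8*. Of the latter, 14.6% still had an *Irf8* UMI before thinning. *Cebpe* ran the other way. Of 720 members, 314 (43.6%) had *Cebpe* of at least 1 and *Irf8* under 1, 323 (44.9%) had the reverse, 34 had both, and 49 had neither. At equal depth an *Irf8* UMI was found in 36.2% of members, 0.615% of the secondary granule group, 0.792% of stromal cells, and 34.3% of B lineage cells, where the gene is also active.

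Members with *Irf8* differed from those without in genes of the monocyte branch. Of 7924 genes, 288 were at least 2-fold higher with *Irf8* (3.63%) and 360 were lower (4.54%), with a median of 0.06. Of 9 tested monocyte and macrophage genes 8 were higher and none lower (median 3.52). *Ccr2*, the chemokine receptor of monocytes, was at 130 and 4.37 CPM, *Ctss*, cathepsin S, at 85.0 and 2.55 CPM, *Ly86* at 250 and 9.68 CPM, and *F13a1*, a coagulation factor subunit made by monocytes, at 492 and 41.9 CPM. *Ms4a6c* was at 497 and 43.3 CPM, *Csf1r*, the M-CSF receptor, at 72.1 and 6.99 CPM, and the transcription factor *Klf4* at 118 and 6.04 CPM. *Cd34* was also higher with *Irf8*, at 112 and 35.8 CPM, as was *Ly6c2* at 3127 and 2275 CPM, less than 2-fold. Over all members, 4 of 10 tested genes of this list were higher than in the others and 1 was lower (median 0.57, with 2 higher and 3 lower after centering).

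Members without *Irf8* were higher in genes of the granulocyte branch. *Gfi1* was at 124 CPM without and 17.5 with *Irf8*, *Cebpe* at 342 and 34.5, *Fcnb* at 588 and 45.4, and *Cd63*, a granule membrane protein gene, at 883 and 88.8. *Pglyrp1*, a bactericidal granule protein gene, was at 933 and 98.3. Of 13 secondary granule genes 10 were higher without *Irf8* in summed counts, where 71 of the 363 cells (19.6%) had at least 100 UMIs per 10000 of *Camp*, *Ngp*, and *Ltf*. The median cell without *Irf8* had 1.67 UMIs per 10000 of *Camp*, near the 1.36 of stromal cells. Also higher without *Irf8* were 6 of 11 genes of the primary granule list, while *Ctsc*, which activates the granule proteases, was higher with it (101 and 19.3 CPM). Among the 6 were *Prss57* (386 and 122 CPM), *Nkg7* (1156 and 367 CPM), and *Ms4a3* (1741 and 652 CPM). The rule fixes that its genes are present in both classes, but not their levels. *Elane* was at 15110 CPM without and 6774 with *Irf8*, *Mpo* at 8571 and 5431, *Prtn3* at 9443 and 6121, and *Ctsg* at 4977 and 3189. *Prg2* (66.2 and 4.54 CPM) and *Cpa3* (23.0 and 1.03 CPM), genes of eosinophils and of mast cells and basophils, were also higher without *Irf8*.

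Both classes carried cell cycle transcripts. At least 3 S phase genes were found in 81.9% of thinned members with *Irf8* and in 81.2% of those without, and at least 5 G2/M genes in 60.9% (55.6% to 66.0%) and 54.0% (48.6% to 59.4%). None of 24 S phase, 24 G2/M, 20 ribosome biogenesis, and 20 ER genes differed by 2-fold. *Cebpa* was at 53.6 CPM with and 55.4 CPM without *Irf8*, and *Myc* at 87.4 and 91.7 CPM. Median depth was 45577 UMIs with and 37821 without, and 92.4% and 77.1% of the cells were above 5000 genes.

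The share with *Irf8* changed with the rule sum. It was 65.9% (54.8% to 75.8%) of the 85 members between 50 and 100 UMIs per 10000, 80.4% (74.5% to 85.3%) of the 224 between 100 and 200, 40.8% (35.1% to 46.7%) of the 294 between 200 and 400, and 1 of the 117 at 400 or more (0.855%, up to 4.67%). *Gfi1* went from 19.4 CPM in the lowest band to 24.4, 74.9, and 165 CPM in the next ones, and *Ms4a3* from 282 to 611, 1405, and 2140 CPM. *Cd34* was at 104, 118, 66.0, and 3.25 CPM in the same order. *Cebpa* was at 38.1 CPM (31.3 to 46.0) in the lowest band, 56.3 and 54.2 CPM in the next ones, and 61.6 CPM (54.4 to 69.5) in the highest. The rule sum is part of what chose these cells, and its bands are a description.

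**Figure D5:**
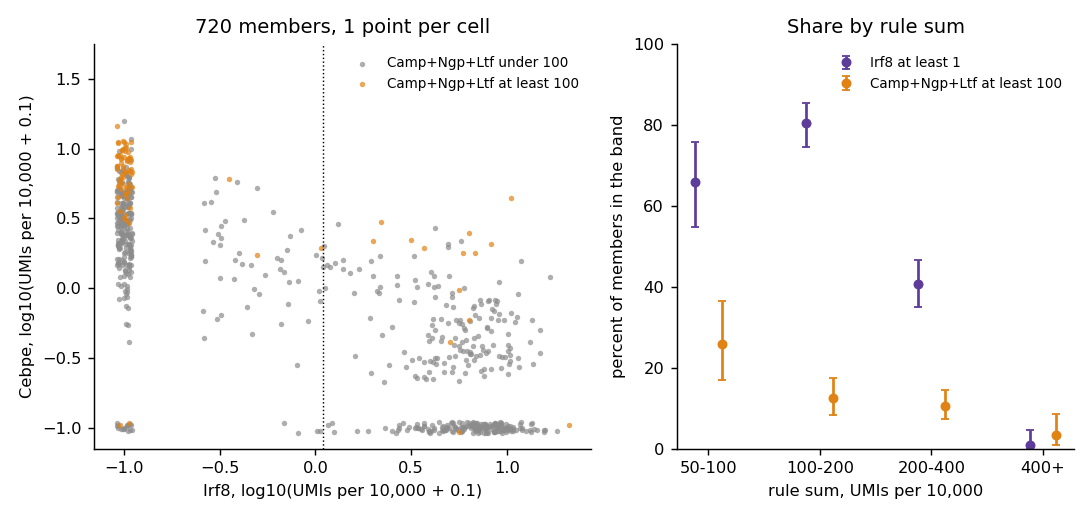
Left, Irf8 against Cebpe in each of 720 members as log10 of UMIs per 10000 plus 0.1, with a small random shift so that cells at 0 can be seen, orange for cells with at least 100 UMIs per 10000 of Camp, Ngp, and Ltf, and a dotted line at the Irf8 limit of 1. Right, percent of members with Irf8 of at least 1 and with the secondary granule genes by band of the rule sum, with 95% Clopper-Pearson intervals. Cells high for both factors are few (34 of 720), and the Irf8 share is 80.4% between 100 and 200 and 0.855% from 400.

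Secondary granule transcripts were strong in few members. The sum of *Camp*, *Ngp*, and *Ltf* reached 100 UMIs per 10000 in 85 members (11.8%, 9.54% to 14.4%), lay between 10 and 100 in 54, and was under 10 in 581. *Irf8* of at least 1 was found in 14 of the 85. Against the other 635 members, 468 of 7953 genes were at least 2-fold higher in these 85 (5.88%) and 657 lower (8.26%), with a median of −0.23. All 13 secondary granule genes were higher, which the choice of cells fixes in part, as were 5 of 6 NADPH oxidase genes (*Cybb* 800 and 118 CPM). *Olfm4*, a protein of a subset of neutrophils, was at 57.1 and 0.442 CPM, and *Cebpe* at 570 and 128 CPM. Of 20 ribosome biogenesis genes 15 were lower (*Npm1* 770 and 1858 CPM), with *Myc* at 36.5 and 95.5 CPM and *Ctsg* at 1596 and 4280 CPM. *Mpo* was at 3870 CPM, *Prtn3* at 5903 CPM, and *Elane* at 10134 CPM in these 85 cells. Stromal genes were higher in them too, 5 of 8 (*Postn* 80.0 and 3.54 CPM), and the part of mixed droplets in this class was not tested. At least 5 G2/M genes were found in 73.4% (62.3% to 82.7%) of those that could be thinned.

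Correlations across the 720 members are descriptions, since the members share 1 library, differ in depth, and were chosen on the sum of *Elane*, *Mpo*, and *Prtn3*. For *Elane* with genes outside the rule, Spearman's rho was 0.83 for *Ms4a3*, 0.83 for *Nkg7*, and 0.65 for *Ctsg*. Between rule genes it was 0.82 for *Elane* with *Prtn3* and 0.65 with *Mpo*. *Elane* had a rho of −0.58 with *Irf8* and of −0.46 with *Cd34*. *Irf8* had a rho of 0.85 with *Ly86*, 0.83 with *Ms4a6c*, and 0.81 with *Ccr2*, and of −0.75 with *Cebpe* and −0.68 with *Gfi1*. The rule sum had a rho of −0.02 with the UMI total of the cell.

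Around *Elane*, 28 coding genes begin within 200 kb, and 18 had at least 10 CPM in members or in the others. Without *Elane* and *Prtn3*, which are high by the rule, 6 of the other 16 were at least 2-fold higher in members (37.5%, beside 31.7% of all genes) and 3 lower, with a median of 0.53. Beside *Elane* and *Prtn3*, the largest ratios were those of *Plppr3*, which begins 11.6 kb away (74.8 and 3.93 CPM, 4.25), and of *Prss57*, 95.3 kb away (3.88). *Plppr3* (79860475-79874634) is on the opposite strand, and its first bases overlap those of *Prtn3*. Its 3' end, where reads are counted, overlaps that of *Ptbp1* (79854427-79864771, plus strand), so its count is uncertain where strand was not used. *Cfd*, an adjacent serine protease gene 4.61 kb from *Elane* that encodes complement factor D, had 16 UMIs in all members and 0 in the others. *R3hdm4*, 35.0 kb away, was lower (71.9 and 377 CPM). Around *Ctsg*, 15 coding genes begin within 200 kb and only *Ctsg* and *Mcpt8* were tested. *Mcpt8*, a basophil protease gene 17.3 kb away, was at 22.0 and 141 CPM, and *Gzmb*, granzyme B, had 0 UMIs in members and 70 in the others.

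Members were found almost only at day 7. The same rule gave 1 of 7334 cells at day 10 (0.0136%, up to 0.0759%) and 16 of 10813 at day 14 (0.148%, 0.0846% to 0.240%). Over all cells within the limits, *Elane* was at 3055 CPM at day 7, 2.08 CPM at day 10, and 17.2 CPM at day 14, and *Mpo* at 1985, 2.00, and 6.32 CPM. The 16 cells of day 14 had a rule sum of 70.2 to 644 with a median of 209, 11 had a *Ptprc* UMI, 4 had *Irf8* of at least 1, 2 had the secondary granule genes, and 1 was above 5000 genes. Since the day 10 and day 14 libraries were nearly free of CD45 transcripts, the day and the outcome of the sort cannot be told apart.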

How the data were processed

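Droplet RNA-Seq libraries of sorted callus cells from 3 days after fracture were used, 1 for each day. Per the file headers, the deposited UMI counts came from Cell Ranger 3.1.0, whereas the labels name 3.0, on mm10. The deposited counts are whole numbers per gene and cell, without normalization, and feature and barcode tables carry names only. The chemistry is given in different versions by the labels and by the paper's methods.

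Here, cells with at least 500 genes, at most 10% mitochondrial UMIs, and at most 5% hemoglobin UMIs were kept, with no upper limit of genes. Members and gene lists were chosen with earlier results of these data known, and the *Irf8* limit, the stromal and B lineage groups, and the comparison within members after their levels were seen. Gene levels are given as CPM from the UMI sum of a group, or as UMIs per 10000 UMIs of a cell. Genes with at least 10 CPM on either side were compared and called at a log2 ratio of at least 1. Shares have Clopper-Pearson intervals, ratios exact binomial ones, and levels Poisson ones, all at 95%. Counts are of 3' ends, and mRNA molecules are counted once by UMI.

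Cells were thinned to 2000 UMIs (seed 7) for shares across depths. Named genes were those of the lists, the 15 highest and 10 lowest ratios over the others and the 10 highest over the secondary granule group with at least 100 CPM on the higher side. Genes next to *Elane* and *Ctsg* and genes within members were named after their values were seen. No doublet caller was run. Members with at least 20 UMIs per 10000 of markers of another cell type were left out as an alternative instead. Other thresholds, filters, and scalings were also tried. Values of some listed genes are not reported here.

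Simulated counts for 7149 genes with 200 changed, drawn for members against the others, gave 95.0% of intervals that held the true ratio. The draws had only the counting error that the intervals assume, without spread between cells or libraries. They therefore check the computation and not the fit of the intervals to these data. Gene positions are from GENCODE M21 (99.6% of 32285 identifiers matched), upstream sequences from RefSeq. Python 3.11.15, numpy 2.4.6, scipy 1.17.1, pandas 2.3.3, and matplotlib 3.10.9 were used.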

Additional observations from a re-analysis of the deposited data

How the results depend on the processing

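Of 43 alternatives to 7 results, 28 stayed within the interval of the share or within 1.5 times the count, and 15 did not. The share of members among day 7 cells was 9.75% with a threshold of 25 UMIs per 10000, 7.76% with 100, and 1.57% with an upper limit of 5000 genes. The share above 5000 genes was 80.3% with a threshold of 25, and 94.2% and 51.2% had more than 4000 and 6000 genes. The share with G2/M genes was 92.0% for at least 2 genes, 57.5% for at least 5, and 98.1% without thinning. The share with secondary granule genes was 9.17% at 200 UMIs per 10000. Higher and lower genes numbered 1165 and 786 with at least 50 CPM and 6911 and 4678 without a filter, by the number of genes tested, and higher genes 1580 after centering on the median ratio. No paired analysis was possible because each day had 1 library. Limits of *Irf8* at 0.5 and 2 UMIs per 10000, added after seeing the data, gave 52.4% and 46.4%. Depth limits the members with few UMIs, 37 of which had fewer than 10000.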

Other observations

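Of 2 tested eosinophil genes 1 was at least 2-fold lower in members than in the others, as were all 3 tested mast cell or basophil genes. Against the secondary granule group, all 2 tested mast cell or basophil genes were higher. Of 2 eosinophil genes there, 1 was higher and 1 lower. Against the mature group, 2 of 3 mast cell or basophil genes were lower and 0 higher. *Prg2*, eosinophil major basic protein, was at 32.5 CPM in members and 46.1 in the other day 7 cells with a *Ptprc* UMI, *Cpa3*, mast cell carboxypeptidase, had a log2 ratio of −1.23, and the basophil protease gene *Prss34* was at 5.32 and 260 CPM. Erythroid and megakaryocyte genes were nearly at 0, with *Car1*, carbonic anhydrase 1, at 0.264 and 30.5 CPM and *Pf4*, platelet factor 4, at 0.892 and 74.5 CPM.

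Of 17 lysosome genes, 4 were at least 2-fold higher in members than in the others and 3 were lower (median 0.34, −0.10 after centering). *Gaa*, acid glucosidase, was at 24.4 and 6.53 CPM, and *M6pr*, a receptor that sorts lysosomal enzymes, at 138 and 42.3 CPM, whereas *Ctsd*, cathepsin D, was at 149 and 360 CPM and *Igf2r* at 5.91 and 41.5 CPM. *Lamp1* was at 270 and 159 CPM. Of 5 tested dendritic cell genes, *Bst2* was higher (166 and 61.4 CPM, less than 2-fold after centering) and 4 were lower, *Cd74*, the invariant chain, from 107 to 1.39 CPM.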
